A study of Mus musculus with 33 samples.

Results

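The genes described here encode the protein components of the cytosolic ribosome, measured by RNA-seq in mouse endothelial cells with and without added Runx1. Gene names beginning with Rpl or Rps followed by a number, together with Rpsa, Rplp0, Rplp1 and Rplp2, gave 77 names in the table of 25239 genes. Names of pseudogenes and of "like" genes were left out. RPKM is a read count relative to gene length and to the size of the library, here with a further scaling between libraries. It reached 1 in at least 2 of the 13 libraries for 76 of the 77. These 76 members comprised 42 genes of the large subunit, 31 of the small subunit and the 3 stalk genes Rplp0, Rplp1 and Rplp2. The choice used only names and a minimum level, not any difference between groups. Rpl26 fell outside, with a mean of 0.00669 RPKM, 0 libraries at the minimum and 2 reads in all. Rpl30 lay just inside, with a mean of 1.27 RPKM and 8 libraries at the minimum.

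Each cytosolic ribosome has a small subunit, which decodes the mRNA, and a large subunit, which joins the amino acids. Cells make the ribosomal proteins in matched amounts, and their mRNAs carry a terminal oligopyrimidine (TOP) tract at the start, through which the mTOR pathway and the RNA-binding protein LARP1 set their translation. Growing and dividing cells make ribosomes at a high rate, and MYC is a known driver of ribosomal protein genes, of the assembly (biogenesis) factors and of RNA polymerase I, which makes the ribosomal RNA. RUNX1 is the transcription factor through which endothelium gives rise to blood cells in the embryo.

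Cells labelled endothelial were sorted as CD41-, CD45-, Ter119-, CD31+, VEC+ and cKIT low or positive. They came from whole embryos at E9.5 on a C57BL/6J-129Sv/J x B6C3F1 background, from whole fetuses at E13.5 on C57BL/6J-129Sv/J, and from livers of adults aged 4 to 6 weeks on C57BL/6J-129Sv/J. All groups carried the knock-in allele CKI. Ctrl cells were CKI/+ at E9.5 and either CKI/CKI or CKI/+ at E13.5 and in liver, with no Cre named. The group 1Runx1 (E9.5 and E13.5) was Cre; CKI/+ and 2Runx1 (E13.5 and liver) was Cre; CKI/CKI, so Cre and added Runx1 cannot be told apart. The labels do not name what drives Cre. Every group received 2 mg tamoxifen, which pregnant females got 24 hours before embryos were taken and adults got by gavage at an interval not given. Only the E9.5 females were superovulated, so age, organ, strain background and mating cannot be told apart between stages. Each RNA group had 2 libraries except E13.5 Ctrl, which had 1 that serves both E13.5 comparisons with Ctrl. No label says that replicates were separate animals, so the p-values measure the spread between these libraries, which may be technical.

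Between 37754246 and 44540403 reads per library were recovered from the steps of the RPKM values, so the members were deeply covered except the few at low level. Runx1 itself was 0.904 to 1.53 RPKM in the 5 Ctrl libraries and 14.9 to 78.4 RPKM in the 8 libraries with added copies. It was 14.9 and 16.2 RPKM in E9.5 1Runx1 and 78.1 and 78.4 in liver 2Runx1. At E13.5 it was 28.9 and 23.7 RPKM with 1 copy and 22.7 and 25.2 with 2. Added copies thus went with more Runx1 RNA than in Ctrl, but 2 copies at E13.5 did not have more than 1. The 10 endothelial markers were detected in every library and summed to 1767 to 5117 RPKM. Of 12 erythroid markers, Hbb-bs and Hbb-bt were listed at 0 in every library and Hba-a1 and Hba-a2 reached at most 0.0184 and 0.0269 RPKM, although the summed erythroid level reached 1223 RPKM in 1 E13.5 library. In bulk RNA a lower level can come from fewer cells of a type or from less RNA per cell, and the libraries do not separate the 2.

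Levels of the members covered a wide range. Among the highest by mean over the 13 libraries were Rpl41 (693 RPKM), Rps14 (690), Rpl13 (685) and Rpl32 (680). The 5 lowest were Rpl30 (1.27 RPKM), Rps27 (6.52), Rpl34 (7.47), Rps15a (19.0) and Rpl22 (29.7). Ribosomes hold most of these proteins in equal numbers, and levels this far below the others are given as the table lists them. Ribosomal protein genes have many near-identical processed copies elsewhere in the genome, and the sources used here do not say how reads matching several places were counted. A gene name reference was searched for pseudogenes named after a member, so copies under other names were not counted. For the 5 lowest, it lists 9 such names for Rpl30, 8 for Rps15a, 2 for Rpl34 and 1 each for Rps27 and Rpl22. It lists 6 for Rpl26, but 24 for Rpl31 and for Rps12, which were not low. These are not numbers of near-identical copies. Levels of single members are therefore uncertain, and the part of such copies was not tested.

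Some close relatives were measured beside members. Rpl22l1, a paralogue of Rpl22, was listed above Rpl22 in every library, at 167 and 154 RPKM against 42.8 and 41.1 in E9.5 Ctrl and at 56.4 and 69.5 against 15.5 and 16.6 in liver Ctrl. Rps27l was listed at 288 and 295 RPKM in E9.5 Ctrl, where Rps27 stood at 4.25 and 4.28. Rpl3l and Rpl39l, known for narrow tissue expression, stayed under 1 RPKM in all 13 libraries, and Rpl10l and Rps27rt were listed at 0.

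Promoter sequence was at hand for part of the set. RefSeq starts on GRCm38.p6 matched 56 of the 76 members and 9852 of the 12546 genes that were tested. In the authors' ATAC-seq peak lists, which mark open chromatin and exist once per group, 55 of the 56 members had a peak within 500 bases of the start in each E9.5 and E13.5 group and in liver Ctrl, and 54 had one in liver 2Runx1. The share of tested genes with such a peak was 91.6% to 92.2% in the embryonic groups and 83.3% to 83.6% in liver. Rps25 lacked one in every group and Rpl6 in liver 2Runx1. The median fold enrichment at members, the authors' own peak value, was 17.9 to 20.2 in embryonic groups and 12.7 and 11.4 in liver Ctrl and 2Runx1, against 16.9 to 18.4, 13.1 and 12.3 for tested genes. The lists have no replicates, so no test was made. In the H3K4me1 lists, a mark that lies beside active promoters rather than on them, 7 of 56 members (12.5%) had a region within 500 bases of the start in E13.5 Ctrl against 36.1% of tested genes. In E13.5 2Runx1 it was 16 of 56 (28.6%) against 69.4%, in a list of 88344 regions against 48795 in Ctrl. The 2Runx1 sample titles and descriptions name the input and 1 ChIP library differently, so that list is read as ChIP with that doubt. These counts shift with the distance allowed.

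The promoters below belong to members named most often in the results, and are shown from 60 bases before to 30 bases after the RefSeq start. Capitals mark CTTTCC or CTTTTCC, the pyrimidine letters typical of a TOP start, and TATAAA, the TATA box letters. They also mark CCGGAAG, which holds the GGAA core of ETS factors. Letters were marked wherever they occurred in the bases shown. The pyrimidine letters lie before the RefSeq start in Rpl12, after it in Rpl10a and next to it in Rps27. TATAAA lies after the start in both Rps2 and Rplp0. The marks are therefore not read as TOP starts or TATA boxes.
Rpl12: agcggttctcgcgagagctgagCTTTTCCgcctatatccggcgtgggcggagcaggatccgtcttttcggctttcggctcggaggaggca
Rpl10a: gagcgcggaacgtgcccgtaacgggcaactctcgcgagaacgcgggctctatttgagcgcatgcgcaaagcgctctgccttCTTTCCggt
Rps2: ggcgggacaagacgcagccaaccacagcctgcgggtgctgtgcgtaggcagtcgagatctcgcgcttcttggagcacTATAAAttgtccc
Rpsa: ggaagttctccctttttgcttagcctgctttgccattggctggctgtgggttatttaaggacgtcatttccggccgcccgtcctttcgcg
Rplp0: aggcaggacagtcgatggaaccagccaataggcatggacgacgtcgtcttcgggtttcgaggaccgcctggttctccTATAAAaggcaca
Rps27: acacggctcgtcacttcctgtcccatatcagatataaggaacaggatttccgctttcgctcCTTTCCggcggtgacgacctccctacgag
Rps3a1: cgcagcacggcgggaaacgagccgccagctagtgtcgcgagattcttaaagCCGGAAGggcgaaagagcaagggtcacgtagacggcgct
These are chr2:32961652-32961741 for Rpl12, chr17:28328505-28328594 for Rpl10a (the later of its 2 RefSeq starts), chr17:24720003-24720092 for Rps2, chr9:120127706-120127795 for Rpsa, chr5:115559407-115559496 for Rplp0, all on the plus strand, and chr3:90213619-90213708 for Rps27 and chr3:86142639-86142728 for Rps3a1, both on the minus strand.

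Letters were counted over all promoters in the same windows. On the gene's own strand, from 30 bases before to 50 after the start, CTTTCC occurred in 16 of 56 members (28.6%) against 4.3% of tested genes and 4.4% of all 27025 promoters. In that window CTTTTCC occurred in 7 of 56 (12.5%) against 1.2% of both. TATAAA occurred there in 4 of 56 (7.1%) against 1.9% and 2.8%, but on either strand of the whole 300 bases in 10.7% of members against 8.9% and 15.7%. On either strand of the whole 300 bases, CCGGAAG occurred in 23 of 56 (41.1%) against 20.1% and 9.9%. AAGATGGC, the letters of a YY1 site, occurred there in 5 of 56 (8.9%) against 5.2% and 3.2%, but on the gene's strand in 3.6% of members and of tested genes, and in the window around the start in 1.8% against 2.5%. CTTTCC and CTTTTCC cannot match the same letters. A match describes the letters only.

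The first comparison asked how the members differ between embryonic and adult endothelium without added Runx1. Nearly the whole set fell with stage. The summed level of the 76 members was 32566 and 31845 RPKM in E9.5 Ctrl, 24911 in E13.5 Ctrl, and 10078 and 10666 in liver Ctrl. No library of one stage overlapped another in this sum. The E13.5 sum was 0.773 of the E9.5 sum, and the liver sum 0.322 of it. As a share of recovered reads, the members took 2.69% to 2.74% in E9.5 Ctrl, 2.27% in E13.5 Ctrl and 0.672% to 0.718% in liver Ctrl. The median level over all genes moved little, from 9.08 and 9.13 RPKM at E9.5 to 9.97 and 9.87 in liver.

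**Figure D1:**
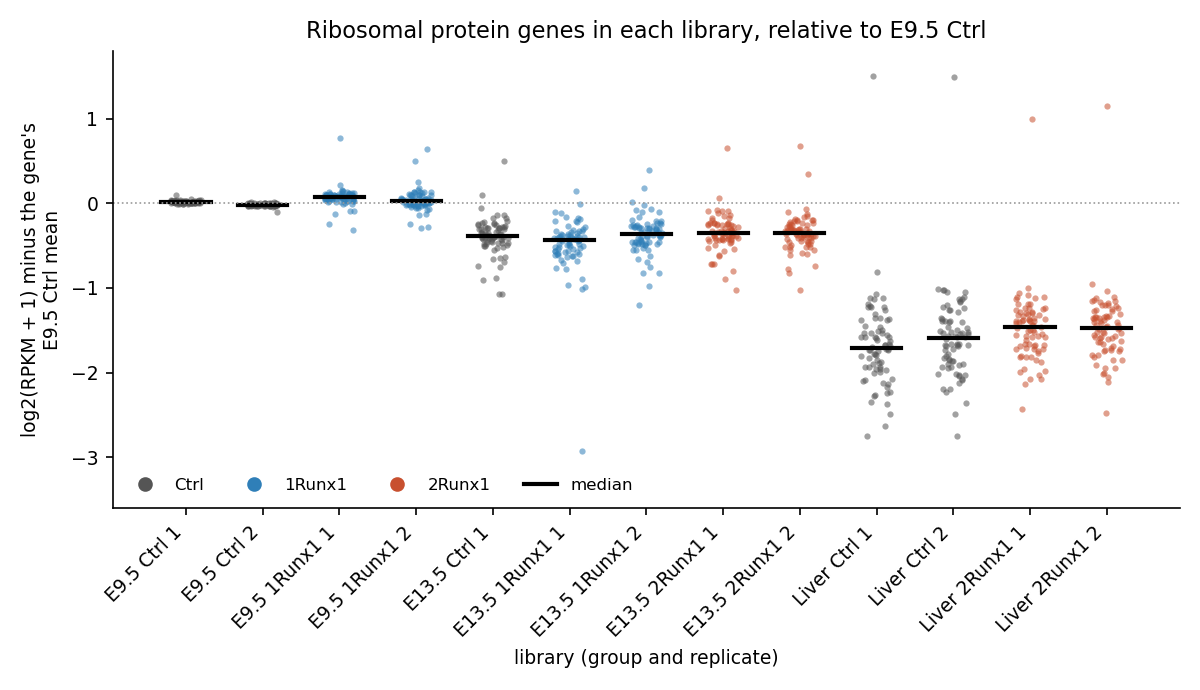
Each point is 1 of the 76 members in 1 library, as log2(RPKM + 1) minus the gene's mean in E9.5 Ctrl (vertical axis), with libraries on the horizontal axis, colour for the Runx1 group and a bar at the median. The medians of the 4 liver libraries lie below those of the 9 embryonic libraries, Rps27 is the gene above 0 in liver, and Rpl29 is the lowest point, in E13.5 1Runx1 replicate 1.

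Differences were tested with limma on log2(RPKM + 1) over 12546 genes, with Benjamini-Hochberg adjustment and a threshold of 0.05, and all log2 differences below are on that scale. In E13.5 Ctrl against E9.5 Ctrl, 70 of 76 members were lower and 1 was higher, where 48.8% of all genes passed, 22.3% higher and 26.4% lower. The median difference of the members was -0.39 against -0.02 for all genes, and quantile normalization gave 48 lower, 1 higher and a median of -0.24. In liver Ctrl against E9.5 Ctrl, 75 were lower and 1 higher, where 85.4% of all genes passed, 42.7% in each direction, with medians of -1.65 and -0.01. In liver Ctrl against E13.5 Ctrl, 73 were lower and 1 higher, where 79.3% of all genes passed, 40.6% higher and 38.6% lower, with medians of -1.29 and 0.02. From E9.5 to liver the median difference was -1.67 over the 42 large subunit genes, all lower, and -1.62 over the 31 small subunit genes, of which 30 were lower. With values rescaled to a constant sum per library, the median of all genes in liver against E9.5 moved to -0.21 and that of the members to -1.88.

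The fall was not equal across members. Rpl12, a protein at the base of the stalk that recruits the elongation factors, stood at 379 and 361 RPKM in E9.5 Ctrl, 235 in E13.5 Ctrl and 54.1 and 54.5 in liver Ctrl. Its difference from E9.5 to liver was -2.75 ± 0.05 (SE, limma adjusted p = 5.66e-12). Rps2, which lines the mRNA entry side of the small subunit, was 933 and 919 RPKM at E9.5, 597 at E13.5 and 149 and 165 in liver, a difference of -2.56 ± 0.07. In both genes the 3 stages did not overlap.

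Rpsa, a small subunit protein also known as the laminin receptor precursor, was 356 and 341 RPKM at E9.5, 281 at E13.5 and 61.2 and 67.3 in liver, a difference of -2.42 ± 0.06. Rps15a, also of the small subunit, had a difference of -2.23 ± 0.11. At the other end were Rps3 at -1.05 ± 0.06 and Rps29 at -1.06 ± 0.05. Rpl30 stood at -0.93 ± 0.12, but its mean was only 1.99 RPKM in E9.5 Ctrl and 0.567 in liver Ctrl. At so low a level the 1 added to RPKM makes the difference smaller, so Rpl30 cannot be ranked beside the others. Every member named here had its 3 stages in the order E9.5, E13.5, liver except Rpl30, whose E13.5 value of 0.587 RPKM lay between the liver values of 0.698 and 0.435.

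Of the stalk genes, Rplp2 fell most. It was 527 and 518 RPKM at E9.5, 331 at E13.5 and 131 and 123 in liver, and its difference from E9.5 to liver was -2.03. Rplp0 and Rplp1 fell by 1.17 and 1.16. From E9.5 to E13.5 the differences were -0.75 ± 0.09 for Rplp0, -0.66 ± 0.05 for Rplp2 and -0.36 ± 0.07 for Rplp1, and all 3 passed.

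**Figure D2:**
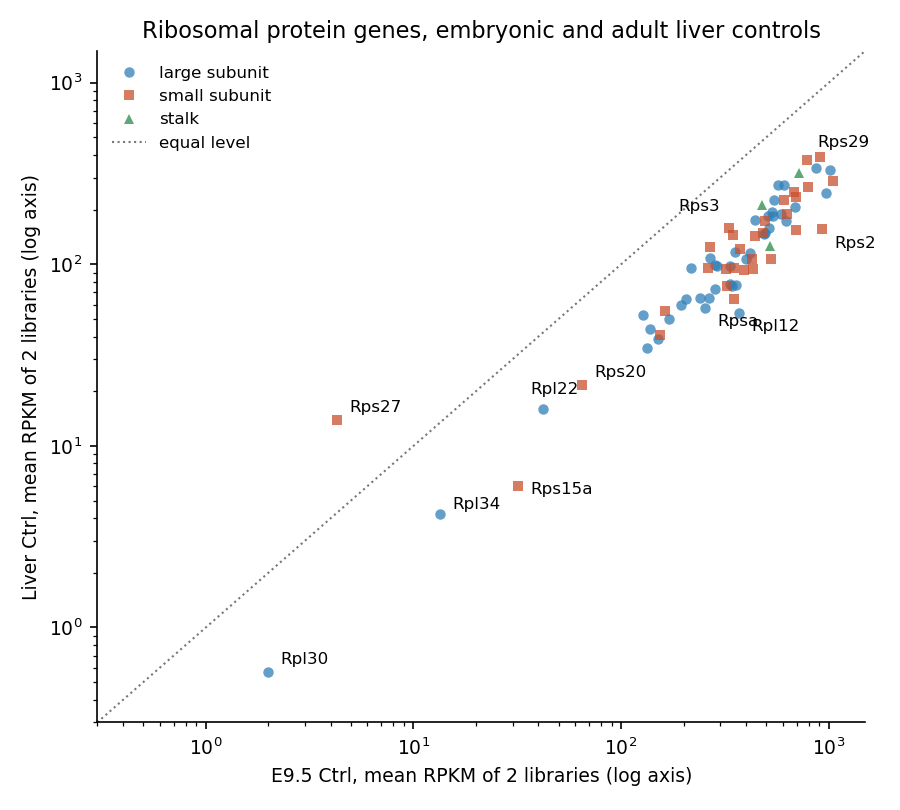
Mean RPKM of 2 libraries per gene in E9.5 Ctrl (horizontal) and liver Ctrl (vertical), both on log axes, with the subunit shown by symbol. All members lie below the line of equal level except Rps27, and Rpl30, Rpl34 and Rps15a lie apart at low levels below that line.

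Rps27, a zinc-finger protein of the small subunit, rose. It was listed at 4.25 and 4.28 RPKM in E9.5 Ctrl, 3.30 in E13.5 Ctrl and 14.0 and 13.8 in liver Ctrl. Liver lay above every embryonic library, with a fitted fold of 2.83 in RPKM + 1 over E9.5 (limma adjusted p = 1.27e-07). The added 1 makes this fold smaller than that of the RPKM values. Its paralogue Rps27l fell by 1.17 ± 0.07. The level of Rps27 rests on 1872 recovered reads over the 13 libraries, so both its low level and its rise are those of the few reads assigned to it.

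Rps3a1, a small subunit protein at the mRNA exit, was the member that rose from E9.5 to E13.5, from 268 and 265 to 377 RPKM, by 0.50 ± 0.08 (limma adjusted p = 0.000498). Apart from Rpl30, members with the largest embryonic fall on the log2(RPKM + 1) scale were Rpl35a and Rpl34, each by 1.07, Rps13 by 0.88 and Rplp0 by 0.75. Rpl30 fell by 0.91 on that scale. At 1.99 RPKM in E9.5 Ctrl and 0.587 in E13.5 Ctrl, it cannot be ranked beside them. Members that did not pass included Rpl3, Rpl7, Rpl29 and Rps27. The E13.5 side of this comparison is 1 library, assumed to vary like the replicated groups.

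Genes of ribosome making outside the set moved in the same direction. Of 48 biogenesis factors, 46 were lower and 2 higher in liver than at E9.5, with a median of -1.81. Grwd1, Nhp2, Rrp12 and Dkc1 had the largest differences, -2.95, -2.93, -2.93 and -2.83, while Sbds, which releases the large subunit for translation, and Imp3 were higher by 1.41 and 1.21. Of 30 translation factors and other TOP mRNAs, 27 were lower and 2 higher (median -1.34), with Npm1 lowest at -3.43 and Snhg8, a host of small nucleolar RNAs, higher by 1.24.

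Of 78 mitochondrial ribosomal protein genes, 68 were lower and 4 higher, with a median of -0.62. Of 15 genes of RNA polymerase I and its factors, 11 were lower and 2 higher (median -0.65), led by the subunits Polr1a at -2.25 and Polr1e at -2.04. All 8 measured relatives of the members were lower, among them Rack1, a scaffold on the small subunit, at -2.32.

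Markers of dividing cells moved with stage. All 18 proliferation genes were lower in liver than at E9.5, with a median of -3.68, and their summed level was 1900 and 1879 RPKM at E9.5, 1263 at E13.5 and 235 and 229 in liver. Mycn was 49.1 and 48.8 RPKM at E9.5, 12.4 at E13.5 and 1.42 and 1.52 in liver, and Myc 35.5 and 34.2, 27.2, and 17.3 and 18.7. Both had their liver libraries below all other Ctrl libraries. Marker lists of other cells moved too. In liver against E9.5 Ctrl, 8 of 9 hepatocyte markers were higher and 1 lower (median 2.59). Of 9 macrophage and leukocyte markers 7 were higher and 2 lower (median 2.65). Of 10 mesenchymal markers 8 were lower and 2 higher. The mesenchymal sum was 80.6 and 81.6 RPKM in E9.5 Ctrl and 89.3 and 86.3 in liver Ctrl, so it was not lower in liver. Of the 10 endothelial markers, 9 were higher and 1 lower in that comparison (median 1.14). Their sum was 1900 and 1923 RPKM in E9.5 Ctrl, 2313 in E13.5 Ctrl and 5117 and 5068 in liver Ctrl. The summed erythroid level was 136 in both E9.5 Ctrl libraries, 1182 in E13.5 Ctrl and 37.0 and 35.6 RPKM in liver Ctrl. The part of proliferation, of the Myc genes and of these cell types in the fall of the members was not tested.

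**Figure D3:**
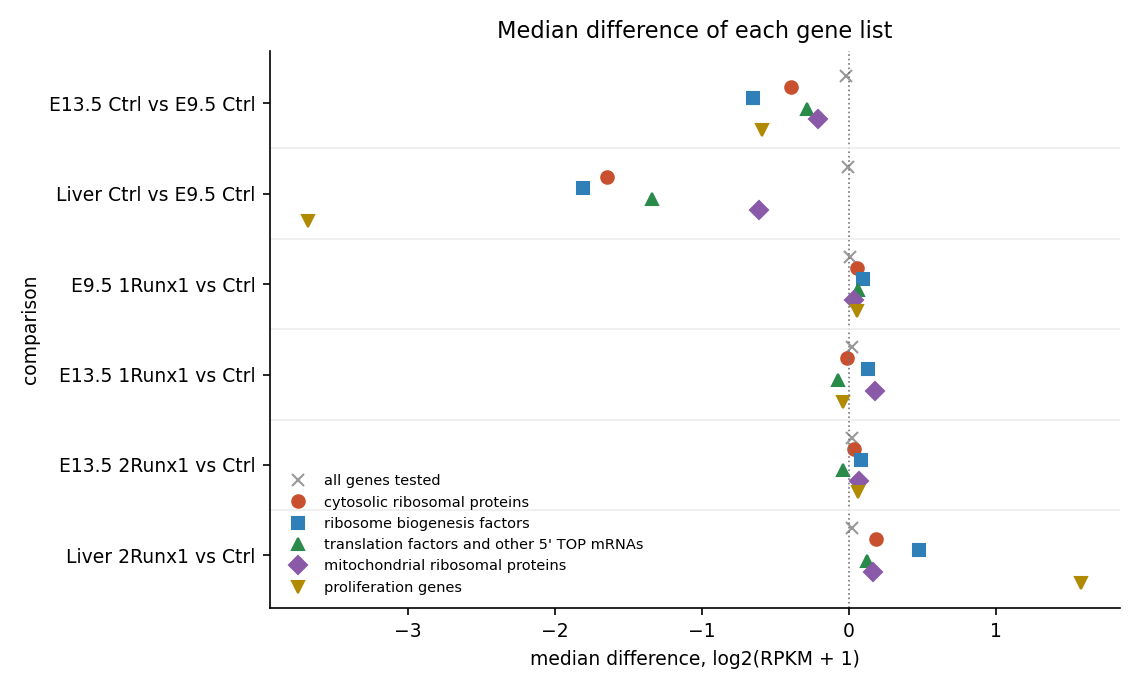
Median log2(RPKM + 1) difference (horizontal) of each gene list and of all tested genes in 6 comparisons (vertical). The members sit at -1.65 in liver against E9.5 Ctrl, between the biogenesis factors at -1.81 and the mitochondrial ribosomal protein genes at -0.62, and at 0.18 in liver 2Runx1 against Ctrl.

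The next comparison asked what 2 added Runx1 copies do in adult liver endothelium. Most members were higher with Runx1, by a small amount. Their summed level was 10078 and 10666 RPKM in liver Ctrl and 11483 and 11473 in liver 2Runx1, which did not overlap, a ratio of 1.11. Of 76 members, 41 were higher and 2 lower, where 25.3% of all genes passed, 17.1% higher and 8.14% lower. The median difference was 0.18 for members and 0.02 for all genes, and 63 of 76 lay above 0. Of the large subunit, 26 of 42 were higher and none lower, and of the small subunit 14 of 31 were higher and 1 lower. Both 2Runx1 libraries lay above both Ctrl libraries in 56 members, against 37% of all genes, and below them in 7, against 29%. With limma-voom on the recovered reads, 26 were higher and 2 lower, and without liver Ctrl replicate 1, 25 were higher and none lower.

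**Figure D4:**
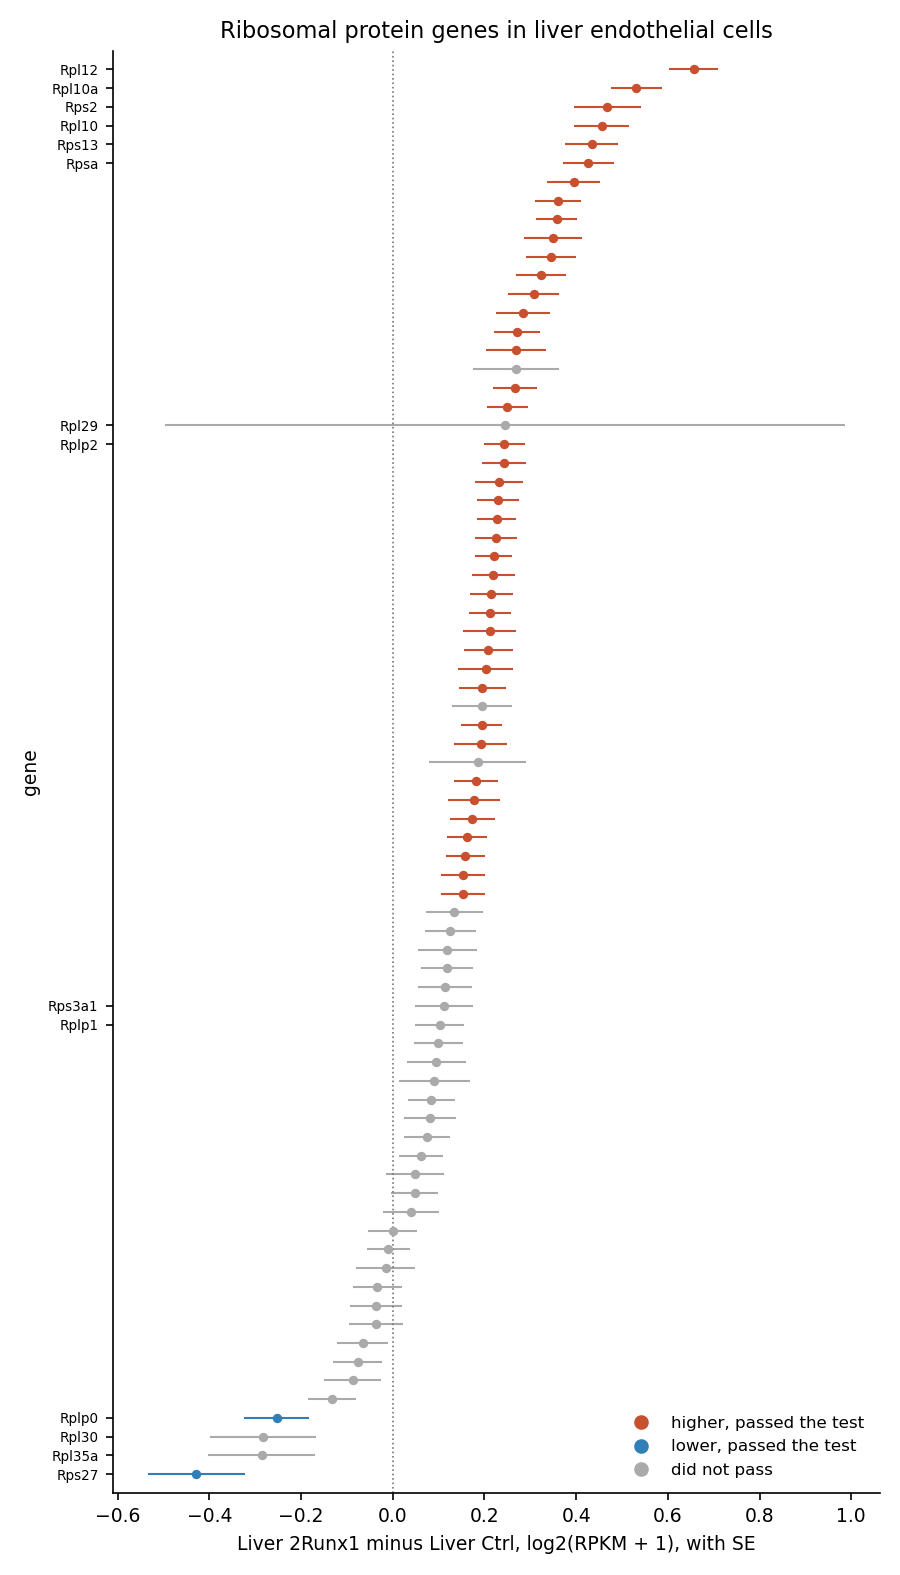
Log2(RPKM + 1) difference of liver 2Runx1 minus liver Ctrl (horizontal, with SE) for each of the 76 members (vertical, in order, with the names of some), with colour for those that passed the test. Rpl12 stands at the top at 0.66, Rps27 at the bottom at -0.43, and the SE of Rpl29 is wide.

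The members with the largest rise were Rpl12, Rpl10a, Rps2, Rpl10 and Rps13. Rpl12 went from 54.1 and 54.5 RPKM in Ctrl to 83.7 and 88.6 in 2Runx1, or 54.3 ± 0.255 to 86.1 ± 3.48 (SD, n = 2), a difference of 0.66 ± 0.05 (SE, limma adjusted p = 9.42e-06). Rpl10a, which forms the mobile stalk at the tRNA exit of the large subunit, went from 38.8 and 38.7 to 56.9 and 56.0 RPKM, by 0.53 ± 0.06 (limma adjusted p = 5.3e-05). In both, the groups lay far apart relative to their replicates.

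Rps2 went from 149 and 165 to 220 and 214 RPKM, by 0.47 ± 0.07 (limma adjusted p = 0.000971). Rpl10, which is needed for the last step of large subunit maturation, went from 178 and 203 to 260 and 262 RPKM, by 0.46 ± 0.06 (limma adjusted p = 0.000288). Rps13, a small subunit protein, went from 90.2 and 95.4 to 122 and 130 RPKM, by 0.43 ± 0.06, and Rpsa from 61.2 and 67.3 to 87.0 and 86.3, by 0.43 ± 0.06. No Ctrl library reached a 2Runx1 library in these 4 genes. Even so, 2Runx1 stayed far below the embryonic libraries, where the lowest Rpl12 value was 230 RPKM.

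Rps27 and Rplp0 were lower. Rps27 went from 14.0 and 13.8 to 9.51 and 10.6 RPKM, a difference of -0.43 ± 0.11 (limma adjusted p = 0.0134). Rplp0, the scaffold of the stalk on which Rplp1 and Rplp2 sit, went from 312 and 328 to 275 and 261 RPKM, a difference of -0.25 ± 0.07 (limma adjusted p = 0.0249), while Rplp2 rose by 0.24 and Rplp1 had a difference of 0.10 that did not pass. The call of Rplp0 was lost without the filter on low values and with quantile normalization (limma adjusted p = 0.0737 and 0.0749), and without any 1 of the 4 liver libraries (0.0614 to 0.152). The call of Rps27 was lost without either liver Ctrl library or without liver 2Runx1 replicate 1 (limma adjusted p = 0.0616 to 0.109). Rpl35a and Rpl30 had differences of -0.29 ± 0.12 and -0.28 ± 0.12 and did not pass.

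Among the other genes of ribosome making in liver, 38 of 48 biogenesis factors were higher with 2Runx1 and 1 lower, with a median of 0.48. Grwd1 rose by 1.13, Rrp12 by 1.07, Nhp2 by 0.93 and Nat10 by 0.89, and Sbds fell by 0.23. Of 15 genes of RNA polymerase I and its factors, 8 were higher and none lower (median 0.17), led by Polr1a at 0.66. Of 30 translation factors and other TOP mRNAs, 10 were higher and 1 lower (median 0.12), with Nap1l1 highest at 0.53. Of 78 mitochondrial ribosomal protein genes, 28 were higher and none lower (median 0.16).

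Of 19 growth regulators, 4 were higher and 3 lower. Myc went from 17.3 and 18.7 to 50.3 and 47.4 RPKM, by 1.39 ± 0.11, Mycn rose by 0.88 and Larp1 by 0.41, while Eif4ebp1 and Eif4ebp2, which hold back cap-dependent translation, fell by 0.30 and 0.29. All 18 proliferation genes were higher, with a median of 1.58, and their sum went from 235 and 229 to 525 and 520 RPKM. Of the marker lists, the endothelial sum went from 5117 and 5068 to 4856 and 4637 RPKM. The macrophage and leukocyte sum went from 172 and 178 to 164 and 161, but 8 of its 9 measured markers had a difference above 0 (median 0.18). The 1 below 0 was C1qb, which went from 56.4 and 53.1 to 27.1 and 27.4 RPKM. The mesenchymal sum went from 89.3 and 86.3 to 43.5 and 47.8 RPKM, with 3 of 10 markers lower, the erythroid sum from 37.0 and 35.6 to 23.6 and 21.3, with 2 of 8 lower, and the hepatocyte sum from 141 and 153 to 138 and 136. The part of these in the members' rise was not tested.

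At E9.5 the question was what 1 added Runx1 copy does. The sum was 32566 and 31845 RPKM in Ctrl and 33806 and 32949 in 1Runx1. The groups did not overlap but differed by a ratio of 1.04. By limma, 1 member of 76 was higher and none lower, where 1.19% of all genes passed, 0.861% higher and 0.327% lower, and 12 members had an unadjusted p under 0.05. The median difference was 0.05, with 66 of 76 above 0, but -0.01 with 31 above 0 under quantile normalization, so no common direction can be given.

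Rps3a1 was the member that passed. It went from 268 and 265 to 455 and 417 RPKM, by 0.71 ± 0.06 (limma adjusted p = 0.000365). Both 1Runx1 libraries lay far above both Ctrl libraries. Rplp0 went from 728 and 713 to 607 and 610 RPKM, a difference of -0.24 ± 0.07 that did not pass (limma adjusted p = 0.19), and Rpl34 and Rpl15 had differences of -0.30 ± 0.08 and 0.17 ± 0.05 that did not pass. Proliferation genes (0 of 18) and biogenesis factors (0 of 48) held 0 calls in this comparison by limma, with 1 and 6 genes at an unadjusted p under 0.05.

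At E13.5, 1 and 2 added copies were compared with the same Ctrl library. With 1 copy, the sum was 23627 and 25116 RPKM against 24911 in Ctrl, which lay between the 2 libraries. Of 76 members 2 were higher and 4 lower, where 10.4% of all genes passed, 6.34% higher and 4.03% lower, and the median difference was -0.01. Rps2 was 597 RPKM in Ctrl and 473 and 401 in 1Runx1, a difference of -0.45 ± 0.09 (limma adjusted p = 0.0141). Rps3a1 was 377 in Ctrl and 266 and 302 RPKM, Rps18, a protein of the small subunit head, 703 and then 533 and 577, and Rplp1 369 and then 299 and 325. Their differences were -0.41 ± 0.08, -0.34 ± 0.06 and -0.24 ± 0.07 (limma adjusted p = 0.0118, 0.00607 and 0.0419).

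In these 4 genes both 1Runx1 libraries lay below the Ctrl library. Rpl35 rose from 477 to 557 and 619 RPKM, by 0.30 ± 0.08, and Rpl30 from 0.587 to 1.55 and 1.48, by 0.66 ± 0.14. Rpl30 was under the minimum of 1 RPKM in Ctrl, and it did not pass by limma-voom on the recovered reads. None of the 6 calls stayed when only the E13.5 libraries were fitted, and quantile normalization gave 3 higher and 11 lower. In the same libraries the erythroid markers summed to 464 and 575 RPKM against 1182 in Ctrl. Of 9 measured hepatocyte markers 6 were lower and 1 higher, and the summed hepatocyte level was 198 and 194 RPKM against 238. Of 9 macrophage and leukocyte markers 5 were lower and 1 higher, but their summed level was 60.6 and 53.7 RPKM against 50.9. The part of these markers was not tested. Mitochondrial ribosomal protein genes had 15 of 78 higher and none lower, with a median of 0.18.

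With 2 copies at E13.5 the sum was 25562 and 25500 RPKM against 24911. By limma 0 members passed, where 0.271% of all genes did, 0.151% higher and 0.12% lower, with 1 at an unadjusted p under 0.05 and 0 by limma-voom on the recovered reads. The median was 0.03. Rpl12 had a difference of 0.03 here, and the largest was that of Rpl30, 0.51 ± 0.14 (limma adjusted p = 0.195). Without 2Runx1 replicate 1, 1 member passed. The 95% interval of the difference was -0.01 to 0.34 for Rps3a1 and -0.03 to 0.36 for Rplp0.

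Set directly against 1 copy, 2 copies had 7 members higher and none lower, where 5.33% of all genes passed, 2.17% higher and 3.16% lower. Runx1 RNA overlapped between these groups, at 28.9 and 23.7 RPKM with 1 copy and 22.7 and 25.2 with 2. The comparison is therefore of allele copies, not of a higher Runx1 RNA level. Rps3a1 was 266 and 302 RPKM with 1 copy and 418 and 426 with 2, by 0.57 ± 0.06 (limma adjusted p = 0.00123). Rps2 differed by 0.51 ± 0.07 and Rps18 by 0.42 ± 0.05 (limma adjusted p = 0.0057 and 0.00106), and Rplp1, Rps26, Rpsa and Rpl21 by 0.25, 0.25, 0.23 and 0.20. In each of the 3 genes with the largest difference both 2-copy libraries lay above both 1-copy libraries. In the same comparison 6 of 9 hepatocyte markers (median 0.59), 3 of 9 macrophage and leukocyte markers and 1 of 8 erythroid markers were higher, and their part was not tested. The count was 3 without either E9.5 Ctrl library, 4 without 2Runx1 replicate 1, and 0 when only E13.5 libraries were fitted.

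Whether the Runx1 effect differed between stages was tested as the difference of differences. Equal copy number did not mean equal Runx1 RNA. With 1 copy Runx1 was 14.9 and 16.2 RPKM at E9.5 and 28.9 and 23.7 at E13.5. With 2 copies it was 22.7 and 25.2 at E13.5 and 78.1 and 78.4 in liver. Stage and Runx1 level cannot be told apart in these comparisons. For 1 copy, E13.5 against E9.5, 1 member passed, where 2.26% of all genes did, 1.16% higher and 1.1% lower. This was Rps3a1, higher with Runx1 at E9.5 and lower at E13.5, with a difference of the effects of -1.12 ± 0.10 (limma adjusted p = 0.000673). It passed under every alternative tried and with each of 12 libraries left out in turn, but the only E13.5 Ctrl library could not be left out. For 2 copies, liver against E13.5, 12 members had a higher effect in liver and 3 a lower one, where 11.1% of all genes passed, 8.2% higher and 2.89% lower. Rpl12 led with 0.62 ± 0.09, followed by Rpl10a at 0.50 ± 0.09, Rpl10 at 0.43 ± 0.09, Rpsa at 0.42 ± 0.09 and Rps2 at 0.42 ± 0.12.

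Rpl30, Rps27 and Rplp0 had a lower effect in liver, by 0.79, 0.62 and 0.42 on the log2 scale. This count fell to 4 with only the E13.5 and liver libraries. It was 5 without liver Ctrl replicate 1, 6 and 5 without liver 2Runx1 replicates 1 and 2, and 8 without either E9.5 Ctrl library. Of the 15 calls, those of Rpl12, Rpl10a and Rpsa stayed under every alternative and with each of the same 12 libraries left out. All 18 proliferation genes also had a higher effect in liver, with a median of 1.56.

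**Figure D5:**
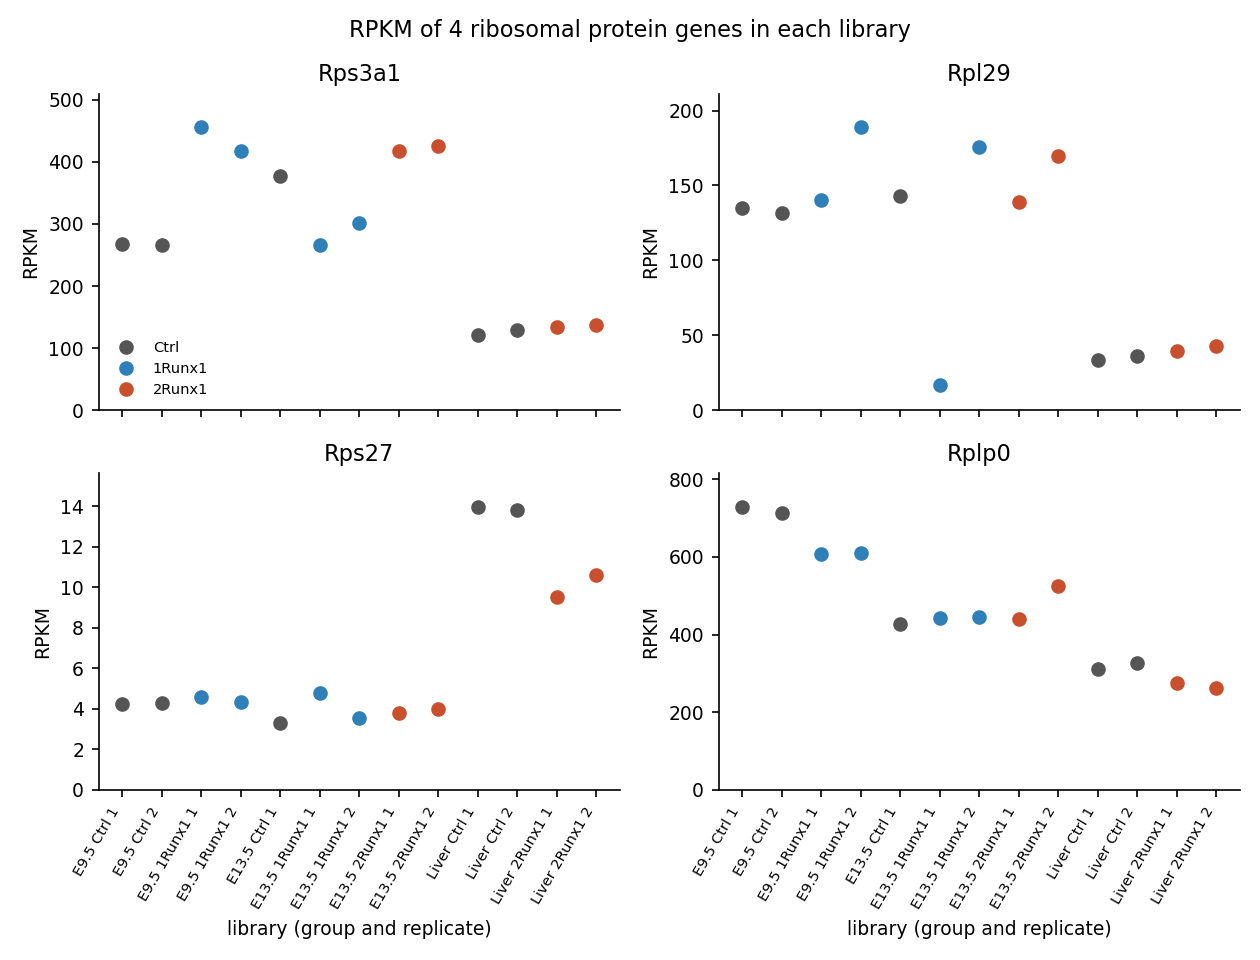
RPKM (vertical, from 0) of Rps3a1, Rpl29, Rps27 and Rplp0 in each of the 13 libraries (horizontal), coloured by Runx1 group. Rps3a1 is higher in E9.5 1Runx1 and lower in E13.5 1Runx1 than in the Ctrl of its stage, Rpl29 is at 16.7 in 1 E13.5 library, Rps27 is higher in liver, and Rplp0 is lower in liver 2Runx1.

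Replicates of a group were close for most members. The SD of the log2 difference between the 2 libraries of a group, over the 76 members, was 0.0308 in E9.5 Ctrl and 0.0627 to 0.0822 in 4 other groups. It was 0.386 in E13.5 1Runx1. There Rpl29, a large subunit protein, was listed at 16.7 RPKM in replicate 1 and 176 in replicate 2, where the other embryonic libraries ran from 132 to 189 and the liver libraries from 33.3 to 43.1. Its SE in the fit was 0.74, and its difference from E9.5 to liver, -1.91 ± 0.74 (limma adjusted p = 0.0322), was the 1 call of that comparison not kept in every alternative. The next widest were Rpl29 in E9.5 1Runx1 and Rps15a in E13.5 1Runx1, with 16.8 and 22.5 RPKM.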

How the data were processed

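The RNA-seq values are RPKM that the authors deposited as 1 table. The submitters' processing notes name bcl2fastq 2.20, Trim Galore 0.6.4, FastQC, STAR 2.7.3a, Subread 2.0.0, featureCounts and edgeR for the study, with no roles or order. The kit, per the labels' protocols, cuts cDNA with a transposase and marks no strand. Low RPKM values stepped in whole reads for 20720 of 20720 genes above 0 (100%, within 0.001 reads), which gave the depth per library and a test by limma-voom on those reads. Against that depth, the library size behind the RPKM was scaled by 0.828 to 0.844 in liver and by 1.03 to 1.13 in embryonic libraries. Stage differences in RPKM therefore depend on this scaling.

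Peak lists per group were deposited by the authors, and the submitters' processing notes name MACS2 2.1.4, deepTools 3.3.0, Bowtie2 2.3.5.1 and SAMtools 1.1, with the builds mm10 and GRCm38. Of the columns in the authors' deposited lists, the fold enrichment (a ratio) and −log10 q were used, and the display score was not.

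Levels were tested with limma 3.58.1 in R 4.3.3 on log2(RPKM + 1), two-sided, over the 12546 genes that reached 1 RPKM in 2 or more libraries, in 1 fit of 7 groups with 6 residual and 10.3 total degrees of freedom. The script was tested on simulated data. Named members are, per comparison, the 5 with the largest change in each direction among those past the test, or up to 3 as values where under 3 pass, the 5 highest and 5 lowest by mean RPKM, the stalk genes with Rpsa, and the 3 cases with the widest replicates. Outside the members they are fixed relatives and up to 4 genes per list and comparison. Some members that the rule names are not reported here. Genes named beyond this rule were chosen after their values were seen. Members and lists were chosen with earlier results of these data known.

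The replicate numbers were not taken as pairs. Alternatives were another pseudocount, no filter, other scalings, limma-voom, fewer libraries, a robust prior, a replicate block and each library left out.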

Additional observations from a re-analysis of the deposited data

Results flagged for a closer look

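Members are given here because their Runx1 effect differed between stages by the limma test of that difference itself. For 1 added copy, E13.5 minus E9.5, 1 member passed, Rps3a1 at -1.12. For 2 added copies, liver minus E13.5, 15 members passed. The named ones were Rpl12 at 0.62, Rpl10a at 0.50, Rpl10 at 0.43, Rpsa at 0.42, Rps2 at 0.42, Rpl30 at -0.79, Rps27 at -0.62 and Rplp0 at -0.42, all as log2(RPKM + 1). The calls of Rpl12, Rpl10a and Rpsa were kept in every alternative and the other 12 were not. Rpl30 and Rps27 rest on few reads, 450 and 1872 over the 13 libraries. Liver and E13.5 differ in organ and age, and the E13.5 side has 1 Ctrl library. They also differ in Runx1 RNA, which was 78.1 and 78.4 RPKM in liver 2Runx1 against 22.7 and 25.2 in E13.5 2Runx1. The interval after tamoxifen is not given for liver.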

How the results depend on the processing

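Counts of members that passed are given. Leaving out each of 12 libraries in turn, they ran from 1 to 2 (E9.5 1Runx1), 4 to 11 (E13.5 1Runx1), 0 to 1 (E13.5 2Runx1), 25 to 45 (liver 2Runx1), 3 to 7 (2 copies against 1), 64 to 72 (E13.5 against E9.5 Ctrl), 75 to 76 (liver against E9.5 Ctrl), 74 to 75 (liver against E13.5 Ctrl), 1 to 5 (1-copy effect between stages) and 5 to 18 (2-copy effect between stages). Leaving out the only E13.5 Ctrl library was not possible. Quantile normalization moved the E13.5 1Runx1 count from 6 to 14, that of 2 copies against 1 from 7 to 14 and that of the 1-copy effect from 1 to 6. Fitting only the stages compared gave 0 for both E13.5 counts and 4 for the 2-copy effect. Limma-voom on recovered reads gave 28 in liver 2Runx1, 2 for the 1-copy effect and 8 for the 2-copy effect. Without the filter, 2 copies against 1 gave 3 and the 2-copy effect 7. The H3K4me1 counts at starts, 7 in Ctrl and 16 in 2Runx1, became 23 and 40 within 1000 bases, 0 and 3 within 100, 0 and 1 at the start itself, and 0 and 0 at −log10 q of at least 10. The cause of these moves was not tested.

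Of 1302 alternatives for named members, 1199 kept direction and side of the threshold, 97 lost the call, 5 gained it and 1 reversed, the Rpl29 1-copy effect, which ran from -3.30 without E13.5 1Runx1 replicate 2 to 0.012 without replicate 1. Of 43 liver 2Runx1 calls 24 stayed in every setting, of 76 liver against E9.5 calls 75, of 71 E13.5 against E9.5 calls 47, and of 6 E13.5 1Runx1 calls 0.

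The replicate numbers were not taken as pairs: correlations of deviations between groups ran from -0.061 to 0.107, with 1 of 15 over 0.1. That 1 was liver Ctrl with liver 2Runx1, and most of the 15 set different stages against each other. With at most 2 libraries per group, the correlations cannot exclude a shared batch. With the replicate block, counts were 1, 5, 0, 41, 5, 71, 76, 75, 1 and 10 in the order above.

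RPKM rescaled to a constant sum changed the split of all genes for E13.5 against E9.5 Ctrl from 2804 higher and 3315 lower to 3672 and 2284, while the members stayed at 1 higher with 57 lower. For liver 2Runx1, quantile normalization gave 1643 and 1374 of all genes against 2149 and 1021. Depth limits Rpl30, Rps27 and Rpl34.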
